A study of Caenorhabditis elegans with 12 samples.

Results

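The 12 whole-worm libraries of this series split into 4 larva-like and 8 adult-like ones by the level of vit-2, a yolk protein gene that the adult intestine switches on. The members of each class were chosen by that measured level: the 4 larva-like libraries had vit-2 under 100 CPM (here a count brought to a common library total, with no further scaling), and the 8 adult-like libraries had over 1000 CPM, so that all 12 fell in a class. The larva-like library nearest the boundary had 86.9 CPM of vit-2 (TDP-43ΔNLS replicate 4), and the nearest adult-like library had 1596 CPM (TDP-43 replicate 1).

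The libraries are poly-A RNA of Caenorhabditis elegans grown at 20 °C, and all 12 are labelled as the fourth larval stage. There are 4 libraries of each of 3 strains. Wild type is N2. The TDP-43 strain carries Psnb-1::TDP-43, a transgene for the RNA-binding protein TDP-43 under the promoter of the neuronal synaptobrevin gene snb-1, together with the red reporter Pmyo-2::dsRED, whose promoter is that of a pharyngeal muscle myosin. TDP-43ΔNLS carries the same kind of transgene with the changes K82A, R83A and K84A in the protein, and its reporter is Pmyo-3::dsRED, with the promoter of a body wall muscle myosin. Worms without a transgene are therefore N2 alone, and no strain carries the reporter without TDP-43. The larva-like libraries were replicates 3 and 4 of TDP-43ΔNLS and replicate 4 of each of the other strains. Every library numbered 4 was larva-like, so that in wild type and TDP-43 the class cannot be told apart from anything that the libraries of that number share. Only TDP-43ΔNLS has a larva-like library of another number. With the replicate number as a block, which leaves the class to the libraries numbered 3, 6585 genes were counted as differing by the rule given below, and 6022 of them were among the 6300 counted without it. The block changes only the fitted log2 change, and overlap was judged on the same levels in both. Much of this agreement was therefore fixed in advance, and it does not separate class from the libraries numbered 4. The labels do not say that replicates were separate cultures, and the spread between them may be technical.

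In the last larval stage of the hermaphrodite, the gonad makes sperm, then switches to oocytes as the animal matures. The hypodermis, the skin epithelium, makes a new collagen cuticle under the old one, which is shed at the final molt. The adult then makes yolk in the intestine, loads it into oocytes, and wraps each fertilised egg in a chitin shell. The larval programme is run by the heterochronic genes, which order the cell fates of successive stages, and by genes that peak once per molting cycle.

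Depth did not separate the classes. Total counts were 23655191 to 26815837 in the larva-like libraries and 20671982 to 26910097 in the adult-like ones. The shares of mitochondrially encoded RNA and of ribosomal RNA overlapped too, at 0.957% to 1.71% against 0.875% to 1.35% and at 0.449% to 1.02% against 0.513% to 1.25%. The 100 most abundant genes of each library took 24.4% to 28.1% of its counts in the larva-like libraries and 20.7% to 23.6% in the adult-like ones, ranges that do not overlap. The part of that difference in the results was not tested.

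Levels below are CPM scaled by the trimmed mean of M values (TMM). For a gene, the levels of the larva-like libraries are given in a fixed order: wild type, TDP-43, then TDP-43ΔNLS replicate 3 and replicate 4. The 8 adult-like libraries are given by their lowest, median and highest level. A fold change is the fitted log2 ratio of adult-like to larva-like with strain as a term, ± an approximate standard error (SE). The SE is the size of that ratio divided by the square root of its quasi-likelihood F statistic, from the fit to all 12 libraries. A gene is counted as higher in one class when that log2 ratio is at least 1 in size and the levels of the 2 classes do not overlap. Because the classes were read from the RNA, no p-value is given for this contrast.

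All 5 marker genes separated the classes without overlap. vit-2 (WBGene00006926, chromosome X, 5101042 to 5106169 of WBcel235) had 6.82, 35.1, 3.15 and 83.2 CPM in the larva-like libraries and 1555, 2943 and 3993 CPM in the adult-like ones, which restates the rule. The adult cuticle collagen col-19 (WBGene00000608, X, 421707 to 422691) had 34.9, 43.5, 1.24 and 480 CPM against 1569, 2499 and 3317 CPM. The larva-like libraries were unlike one another here, since TDP-43ΔNLS replicate 3 was nearly without col-19 and TDP-43ΔNLS replicate 4 had the most. The oocyte RNA-binding gene oma-1 (WBGene00003864, IV, 8888976 to 8890999) had 7.07, 13.2, 8.26 and 15.3 CPM against 179, 322 and 425 CPM. Both molting genes went the other way. mlt-10 (WBGene00015646, II, 546705 to 552032) had 107, 180, 65.7 and 92.5 CPM against 7.97, 16.5 and 63.1 CPM, and the apical matrix gene noah-1 (WBGene00016422, I, 5874416 to 5878958) had 338, 533, 383 and 317 CPM against 8.75, 26 and 88.8 CPM. For mlt-10 the classes nearly met, with 65.7 CPM in TDP-43ΔNLS replicate 3 and 63.1 CPM in wild type replicate 1. The stage label and these markers go apart for the 8 adult-like libraries, all of which held yolk and oocyte RNA.

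**Figure D1:**
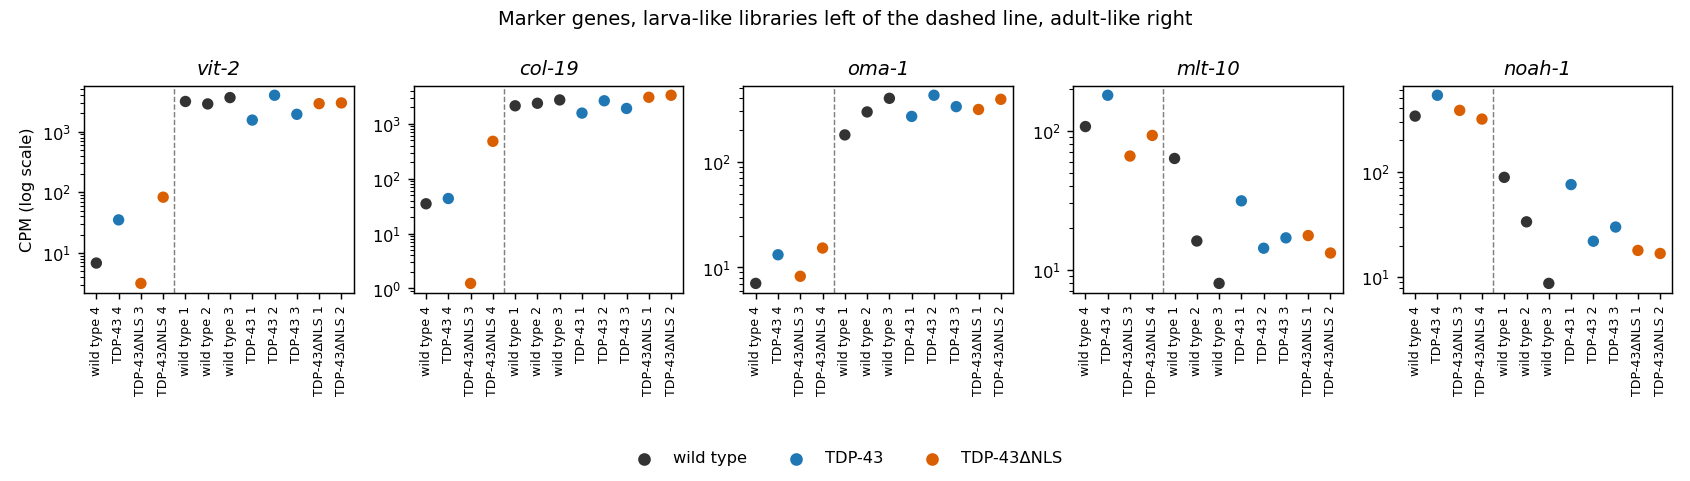
Level of the 5 marker genes in each library, in CPM on a log scale, with 1 point per library, coloured by strain. The 4 larva-like libraries, left of the dashed line, lie below the 8 adult-like ones for vit-2, col-19 and oma-1 and above them for mlt-10 and noah-1.

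Of 17058 genes tested, 3411 (20.0%) were higher in the adult-like libraries and 2889 (16.9%) higher in the larva-like ones. The balance depended on the scaling and the rule: it was 2497 against 4364 with upper-quartile scaling, 3789 against 2377 with DESeq2 size factors, and 4427 against 4699 with overlap allowed. Both directions together make 6300 genes (36.9%), and 7844 genes (46.0%) had levels that did not overlap, whatever the size of the change. The rule used this contrast, so these shares describe it and nothing is read from them. The median log2 change over all genes was -0.17. Counts and medians of the gene lists below stand beside these shares and this median of all tested genes. The adult-like direction held the large changes. Above a log2 change of 2, 1974 genes were higher in the adult-like class and 836 in the larva-like class, and 332 genes against 5 passed a fitted log2 change of 5. Genes that were close to silent in a class were nearly all larva-silent: 68 genes had under 1 CPM in every larva-like library and at least 5 CPM in every adult-like one, and 1 gene had the opposite pattern. That gene, T13F2.4, had 5.24, 6.05, 7.1 and 8.22 CPM in the larva-like libraries and at most 0.651 CPM in the adult-like ones. These are libraries of whole worms, in which fewer cells of a type and less RNA per cell cannot be told apart.

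**Figure D2:**
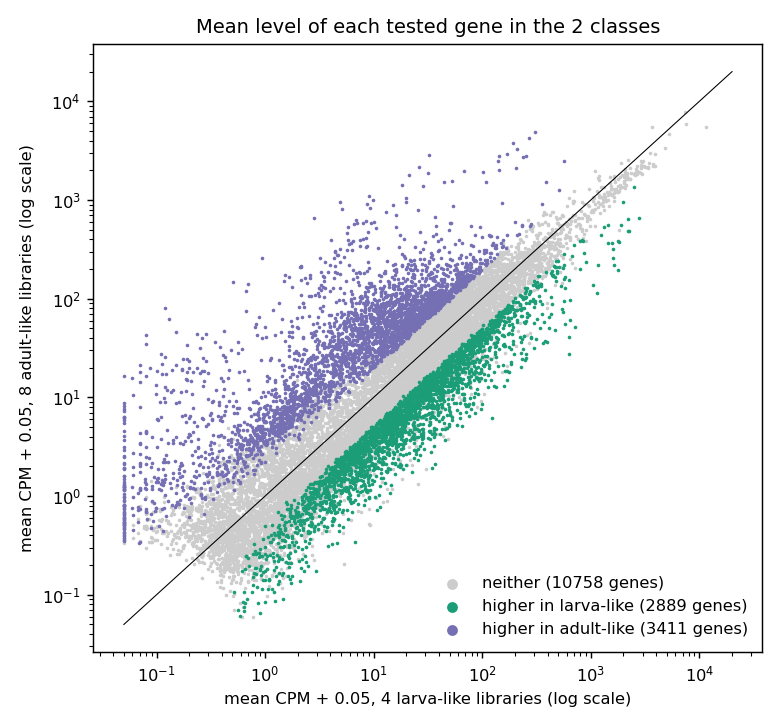
Mean level of each of the 17058 genes in the 4 larva-like libraries (horizontal, CPM plus 0.05, log scale) and in the 8 adult-like libraries (vertical, same scale). The 3411 genes higher in the adult-like class spread far above the diagonal line of equal levels, and the 2889 genes higher in the larva-like class form a narrower band below it.

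For the largest changes, 12 counted genes were named in each direction. They had to have a gene-class name and, in the class where they were higher, to average 5 CPM or more, and no gene class gave more than 2. Of the 12 named towards the adult-like class, 7 had 0 to 3 counts over the larva-like libraries. The Skp1-related ubiquitin ligase gene skr-15, the T-box gene sea-1, which is an autosomal signal in sex determination, and the BTB domain gene btb-7 had no counts in any larva-like library. Set against a floor of 3 counts over those 4 libraries (0.0296 CPM), they were at least 268-fold, at least 242-fold and at least 209-fold higher in the adult-like ones. skr-7 had 1 count over the larva-like libraries and a ratio of 1570 (95% counting interval 282 to 62000). The cell cycle phosphatase gene cdc-25.3 had 3 counts and a ratio of 1160 (398 to 5650), rgs-9, named as a regulator of G protein signalling, 2 counts and 722 (200 to 5960), and the F-box gene fbxc-42 2 counts and 404 (112 to 3340). These intervals cover counting error only. Of the genes with more larva-like counts, meg-1, a germ granule component of the embryo, had 0, 0.672, 0 and 1.18 CPM against 75.6, 146 and 214 CPM (log2 change 8.49 ± 0.87). The yolk gene vit-4 had 8.04 ± 0.81, the T-box gene tbx-9 8.02 ± 0.64, the Nanos homologue nos-2 7.92 ± 0.76, and the C-type lectin gene clec-222 7.89 ± 1.02.

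The 12 genes named in the same way for their change towards the larva-like class included genes of the cuticle and of cell adhesion. T13F2.4, with a log2 change of -4.59 ± 0.58, has no gene-class name and is not among them. The cuticle collagen gene col-41 had 469, 672, 962 and 401 CPM against 2.78, 20.5 and 58.7 CPM (log2 change -4.71 ± 0.65). A second collagen, col-54, had 94.8, 162, 163 and 70.6 CPM against 1.26, 4.33 and 16 CPM (-4.45 ± 0.60). Every larva-like library lay above every adult-like one for both. The body shape genes dpy-1 and dpy-2 had a log2 change of -4.15 ± 0.71 and -3.75 ± 0.65, the lipocalin gene lpr-6 of -3.94 ± 0.60, and the patched-related gene ptr-10 of -3.79 ± 0.58. The cadherin genes cdh-10 and cdh-7, which code for cell adhesion proteins, had a log2 change of -3.93 ± 0.57 and -3.79 ± 0.52. The other genes among the 12 were fbn-1, described with the molting genes, the α-tubulin gene tba-8 (-4.45 ± 0.63), the predicted acyltransferase gene oac-29 (-4.36 ± 0.61) and the chemoreceptor gene srw-85 (-3.82 ± 0.65).

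All 6 yolk protein genes were higher in the adult-like libraries (median log2 change 7.18). One of them, vit-2, defined the classes, and without it the other 5 had a median of 7.66. vit-6 had 9.95, 43.5, 5.66 and 45.8 CPM against 1385, 2168 and 3165 CPM (6.36 ± 0.71). vit-3 had 0.395, 8.94, 2.23 and 7.74 CPM against 355, 915 and 1652 CPM, and vit-5 had 1.65, 3.06, 4.23 and 11.4 CPM against 324, 816 and 1188 CPM. Wild type replicate 4 was the lowest for vit-3 and vit-5, and TDP-43ΔNLS replicate 3 for vit-2 and vit-6. Without vit-2, the yolk genes took 0.00157% to 0.00801% of all counts in the larva-like libraries and 0.24% to 0.651% in the adult-like ones. The yolk genes are transcribed in the intestine, yet none of the 15 general intestine genes on the list was counted as differing, and their median log2 change was -0.48. The brush border linker gene erm-1 had 237, 245, 249 and 243 CPM against 220, 244 and 272 CPM, levels that overlap. The intestinal regulator elt-2 had 12.2, 5.25, 19.3 and 20.3 CPM against 3.41, 6.07 and 11.7 CPM, levels that also overlap.

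All 14 eggshell genes were higher in the adult-like libraries, with a median log2 change of 5.91. cbd-1, which codes for a chitin-binding protein that anchors the shell, had 19.5, 48.4, 14 and 43.3 CPM against 961, 1824 and 2554 CPM (5.97 ± 0.46). The proteoglycan genes cpg-1 and cpg-2 had a log2 change of 7.15 ± 0.60 and 6.59 ± 0.68, and the permeability barrier gene perm-4 of 6.41 ± 0.85. The eggshell chitin synthase gene chs-1 had 3.77, 7.77, 3.11 and 10.3 CPM against 185, 299 and 390 CPM. The 4 larva-like libraries were low for every one of these genes, and TDP-43ΔNLS replicate 3 was the lowest for cbd-1, cpg-1, cpg-2, perm-4 and chs-1. Eggshell genes took 0.0286% to 0.0426% of the larva-like counts and 0.579% to 1.19% of the adult-like ones. The cytochrome P450 gene cyp-31A2, known for the lipid layer of the eggshell, had 2.8, 4.07, 0.399 and 5.79 CPM against 48, 68.5 and 98.4 CPM (4.55 ± 0.58). Its copies are nearly identical in sequence, so that the level of each copy is uncertain.

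RNA regulators that oocytes store for the embryo followed. Of 19 genes, 17 were higher in the adult-like libraries (median log2 change 5.89) and none in the larva-like ones. pos-1, an RNA-binding protein of the embryonic germ lineage, had 4.13, 8.73, 2.51 and 19.3 CPM against 454, 868 and 1307 CPM (6.89 ± 0.66). mex-5 and spn-4, which code for RNA-binding proteins of the early embryo, had a log2 change of 5.48 ± 0.39 and 5.65 ± 0.40. gld-1, a translational repressor that also acts earlier, in meiotic entry, had 40.8, 81.3, 20.8 and 73.7 CPM against 517, 840 and 1255 CPM (4.02 ± 0.37), so its transcript was present in the larva-like libraries. The members counted in neither direction were the cytoplasmic poly(A) polymerase gene gld-2 (0.85 ± 0.14) and lin-41 (0.50 ± 0.34). lin-41 acts both in larval timing and in oocyte growth, and had 103, 44.9, 170 and 68.2 CPM against 97.3, 129 and 209 CPM, levels that overlap. The log2 change of lin-41 was 1.86 within TDP-43 and -0.01 within wild type, and it turned to -0.67 with the replicate number as a block.

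Germ granule and Argonaute genes, which guard germ cell RNA, showed smaller changes: 13 of 14 were higher in the adult-like libraries, with a median log2 change of 2.80. The DEAD-box helicase gene cgh-1 had 85.4, 143, 65.1 and 138 CPM against 930, 1498 and 2108 CPM (3.83 ± 0.27). The nuclear Argonaute gene hrde-1 had a log2 change of 3.91 ± 0.27, the Argonaute gene wago-1 of 3.57 ± 0.35, and the germ granule gene car-1 of 2.63 ± 0.21. All 26 meiotic chromosome genes were higher in the adult-like libraries (median 2.62). Among them, him-3, a protein of the chromosome axis, had 15.1, 25.1, 5.34 and 21.5 CPM against 80.1, 133 and 172 CPM (3.01 ± 0.38). syp-4, which codes for a part of the synaptonemal complex, had a log2 change of 3.23 ± 0.29, and him-17, needed for meiotic recombination, of 1.52 ± 0.17.

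Genes of DNA replication and cell division went the same way in 25 of 28 cases (median log2 change 2.83). The mitotic cyclin gene cyb-3 had 20, 34.2, 19.9 and 33.3 CPM against 276, 450 and 643 CPM (4.20 ± 0.29), and a second B-type cyclin, cyb-1, had a log2 change of 3.53 ± 0.29. The ribonucleotide reductase gene rnr-2, which makes DNA precursors, had 32.7, 34.1, 40.9 and 47.9 CPM against 202, 354 and 513 CPM (3.39 ± 0.27). The replicative helicase gene mcm-6 had a log2 change of 3.00 ± 0.25. The remaining 3 members were the cyclin-dependent kinase inhibitor gene cki-1, which stops the cell cycle and was higher in the larva-like libraries (14.7, 16.9, 19.5 and 20.6 CPM against 1.94, 5.04 and 8.5 CPM), and cdk-4 and cyd-1, the kinase and cyclin of the G1 phase. cdk-4 had a log2 change of 0.41 ± 0.19 and cyd-1 of -0.54 ± 0.29, with levels that overlapped.

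The larva-like libraries differed widely from one another in sperm genes. The major sperm proteins are the cytoskeletal and signalling proteins of the crawling nematode sperm, and their genes are near-identical copies, so that the level of each copy is uncertain. Of 31 such genes, 29 passed the filter on low counts and 28 of these were higher in the adult-like libraries, with a median log2 change of 2.95. msp-81 had 11.4, 44.2, 0.0798 and 35.1 CPM against 98.2, 151 and 194 CPM. msp-59 had 8.44, 38.9, 1.28 and 42 CPM against 121, 165 and 204 CPM. The list's mean log2 level was 0.06 in TDP-43ΔNLS replicate 3, 2.16 in wild type replicate 4, 4.12 in TDP-43ΔNLS replicate 4, 4.14 in TDP-43 replicate 4, and 5.71 to 6.40 in the adult-like libraries. TDP-43ΔNLS replicate 3 was thus nearly without these RNAs, and the other 3 larva-like libraries held some.

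The sperm phosphatase genes also had their lowest level in TDP-43ΔNLS replicate 3. gsp-3 had 3.19, 22.7, 1.32 and 16.7 CPM against 45.3, 73.2 and 82.5 CPM (log2 change 2.74 ± 0.63), and gsp-4 had 3.3, 14.6, 2.83 and 18.3 CPM against 45, 65.2 and 79.6 CPM (2.79 ± 0.51). Over the wider spermatogenesis list, 11 of 22 tested genes were higher in the adult-like libraries and none in the larva-like ones (median 1.64). The sperm membrane genes fer-1 and spe-9 overlapped between classes. fer-1 had 4.92, 10.9, 2.63 and 4.74 CPM against 3.67, 6.42 and 8.63 CPM, so that TDP-43 replicate 4 was above every adult-like library. spe-44, which codes for a transcription factor of spermatogenesis, had 3.48, 8.02, 2.71 and 2.35 CPM against 10.3, 13.1 and 19.3 CPM.

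Of 12 genes that decide between sperm and oocyte fates, 7 were higher in the adult-like libraries and none in the larva-like ones (median log2 change 1.34). fem-3, which promotes sperm fate, had 3.66, 4.58, 3.35 and 5.83 CPM against 39, 66.2 and 76 CPM (3.92 ± 0.24), and fog-2, which allows the hermaphrodite to make sperm, had 1.11, 3.06, 2.39 and 3.12 CPM against 17.7, 26.1 and 28.5 CPM (3.44 ± 0.29). fog-3, which acts late in choosing sperm fate, ran the other way, with 3.55, 4.54, 1.75 and 3.16 CPM against 0.262, 1.79 and 2.59 CPM, and its levels overlapped. The terminal regulator tra-1 had 108, 83.4, 117 and 82.5 CPM against 67.6, 72.8 and 95 CPM, also with overlap.

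Some marker genes that only the embryo's own genome switches on were almost undetected in both classes. The endoderm and early zygotic genes end-1, end-3, med-1, tbx-37 and pes-10 reached at most 0.336, 0.557, 0.298, 0.339 and 0.242 CPM in any library, by total counts. Other zygotic genes were not covered by these markers. Of the 15 genes on the early embryo list, 6 passed the filter. Of these, pal-1, whose RNA is also supplied by the mother, was higher in the adult-like libraries (10.1, 15.2, 10.4 and 17.9 CPM against 93.1, 142 and 193 CPM). hlh-1, a muscle regulator that the larva also uses, was higher in the larva-like ones (17, 22.1, 14.4 and 18.4 CPM against 5.01, 7.62 and 9.49 CPM). Log2 changes of the 6 tested genes ran from -1.39 to 3.84, and the sign of this list's median of -0.05 changed with the scaling.

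**Figure D3:**
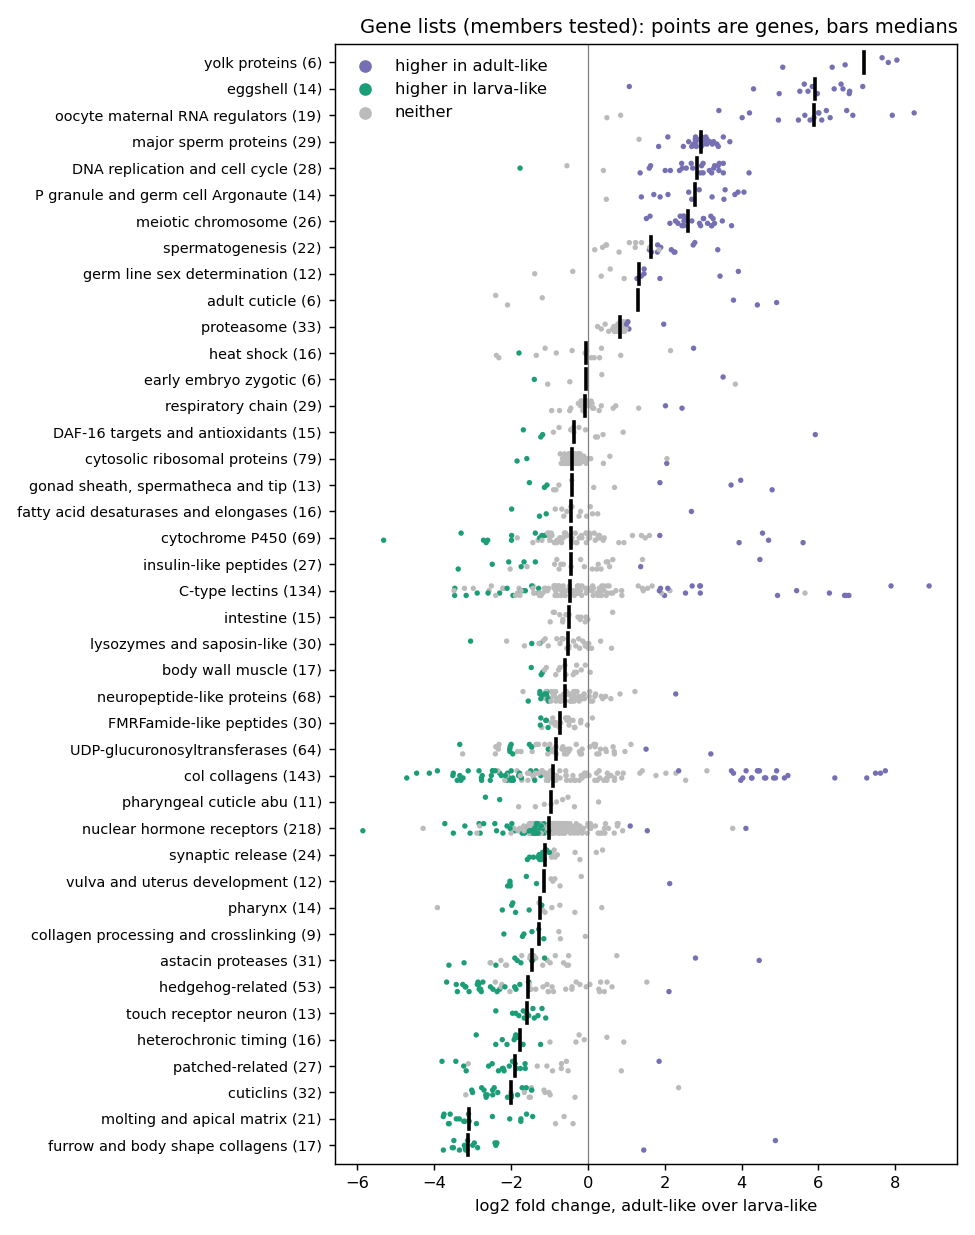
Log2 change, adult-like over larva-like, of each tested gene in the 42 lists, with the number tested in brackets and a bar at each list's median. Yolk, eggshell and oocyte lists lie furthest to the right and furrow collagens and molting genes furthest to the left, while the col collagens spread to both sides.

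Cuticle collagen genes of the col class were counted in both directions. Of 143 tested, 23 (16.1%, beside 20.0% of all tested genes) were higher in the adult-like libraries and 40 (28%, beside 16.9%) in the larva-like ones (median log2 change -0.90). The share of counts taken by the whole family was nonetheless larger in the adult-like class, at 5.61% to 7.73% against 4.17% to 5.41%. The 4 members with the highest mean CPM, col-122, col-124, col-140 and col-181, were all higher in the adult-like class, with log2 changes of 4.44 ± 0.98, 4.63 ± 1.04, 4.88 ± 1.04 and 4.47 ± 0.97. Several col genes are close copies, and their separate levels are uncertain. col-124 had 98, 114, 8.46 and 1011 CPM against 3273, 4794 and 6696 CPM. The order of the larva-like libraries for col-122, col-124, col-140 and col-181 was that of col-19: TDP-43ΔNLS replicate 3 the lowest and TDP-43ΔNLS replicate 4 the highest, by a wide margin in both directions.

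Of 6 genes listed as adult cuticle genes, 3 were higher in the adult-like libraries and 3 had overlapping levels (median 1.30). col-7 had 3.12, 1.34, 0.439 and 45.1 CPM against 90.4, 121 and 204 CPM, and col-62 had 3.95, 3.57, 1.28 and 52 CPM against 86.6, 113 and 182 CPM. The other members were bli-1 and bli-2, collagens of the struts between the layers of the adult cuticle, and col-63. bli-1 had 243, 325, 41.8 and 253 CPM against 7.02, 33.4 and 122 CPM. bli-2 had 294, 436, 41.2 and 288 CPM against 14.3, 53.4 and 160 CPM. col-63 had 350, 465, 36.8 and 482 CPM against 43.9, 142 and 468 CPM. For bli-1 and bli-2, 3 of the larva-like libraries stood above every adult-like library, whereas TDP-43ΔNLS replicate 3 fell within the adult-like range. For col-63, TDP-43ΔNLS replicate 3 was below every adult-like library and TDP-43ΔNLS replicate 4 above every one. The log2 change of col-63 was -1.18 ± 0.67 and turned to 0.85 with the replicate number as a block.

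**Figure D4:**
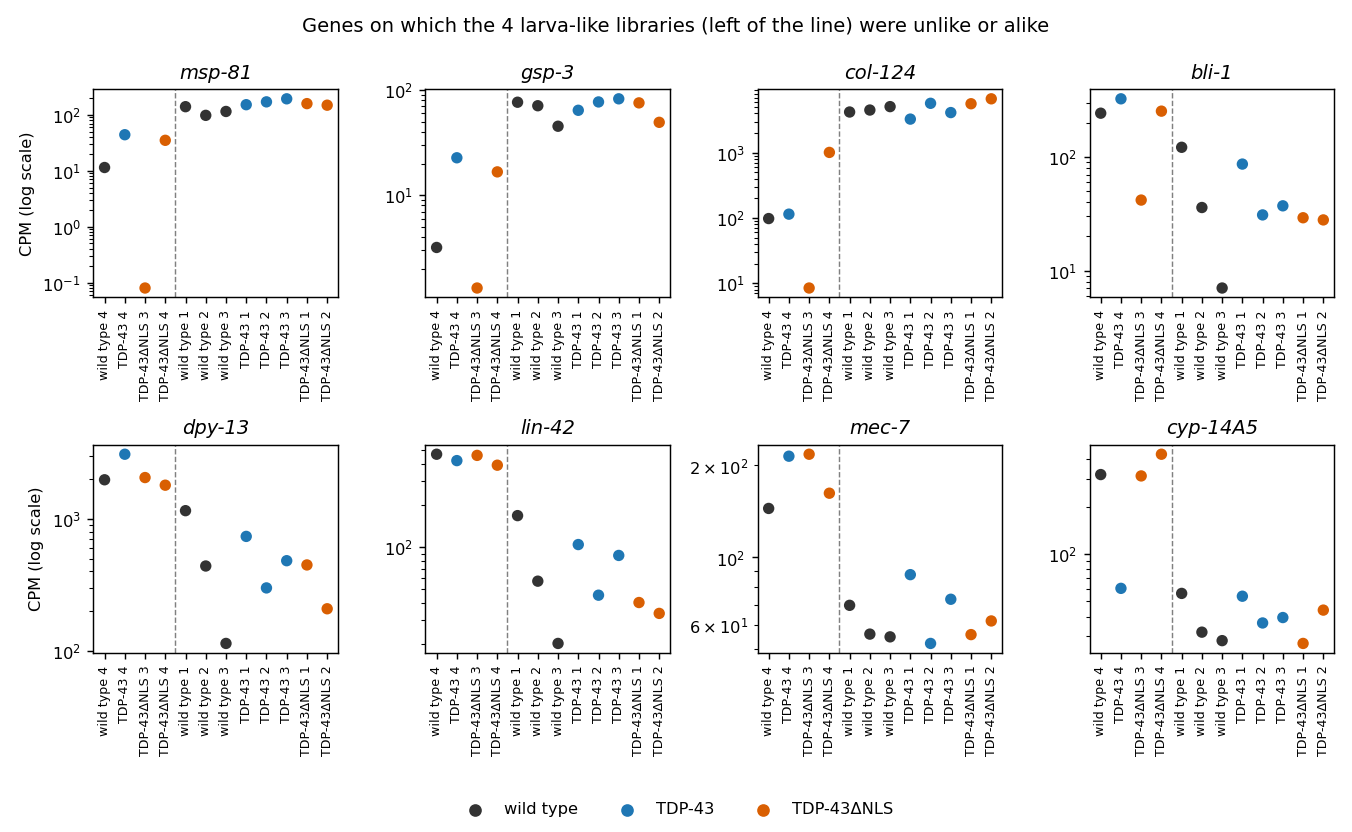
Level of 8 genes in each library, in CPM on a log scale, with 1 point per library, coloured by strain and with the larva-like libraries left of the dashed line. The larva-like libraries are spread over more than 100-fold for msp-81 and col-124, TDP-43ΔNLS replicate 3 is low for bli-1 and TDP-43 replicate 4 for cyp-14A5, and they lie close together for dpy-13, lin-42 and mec-7.

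The furrow collagens, which shape the circular grooves of each cuticle, and the other collagens of body shape were higher in the larva-like libraries in 15 of 17 cases (median log2 change -3.13). dpy-13 had 1975, 3084, 2053 and 1797 CPM against 114, 443 and 1152 CPM (-2.36 ± 0.49). sqt-3 had 1027, 1380, 1000 and 758 CPM against 32.9, 104 and 348 CPM (-3.17 ± 0.51). dpy-5 and dpy-4 had a log2 change of -2.41 ± 0.49 and -2.39 ± 0.49. Here TDP-43 replicate 4 had the highest level of all 4 genes, and TDP-43ΔNLS replicate 3 was in the range of the other larva-like libraries. The list took 0.862% to 1.33% of the larva-like counts and 0.0412% to 0.46% of the adult-like ones. The exceptions were dpy-14 and dpy-17, higher in the adult-like class at low levels. dpy-14 had 0.251, 0, 0 and 0.203 CPM against 0.27, 2.68 and 11.6 CPM, and dpy-17 had 4.38, 4.87, 0.519 and 1.38 CPM against 5.57, 6.43 and 15.6 CPM. Both pairs of ranges came within 1 CPM of each other.

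Molting and apical matrix genes were higher in the larva-like libraries in 18 of 21 cases, with none the other way (median log2 change -3.08). mlt-11, a protease inhibitor needed for molting, had 477, 550, 512 and 348 CPM against 6.92, 36.2 and 128 CPM (-3.58 ± 0.59). lpr-3, a lipocalin of the matrix, had a log2 change of -3.62 ± 0.60, fbn-1, a fibrillin-like matrix gene, of -3.76 ± 0.47, and lrp-1, a lipoprotein receptor that takes up sterols for molting, of -2.03 ± 0.24. Of the nuclear receptors that drive the molting cycle, nhr-25 had 36.4, 39.8, 57.3 and 38.3 CPM against 3.46, 4.23 and 7.7 CPM (-3.20 ± 0.22). nhr-23 had 46.7, 51.2, 54 and 45 CPM against 29.2, 36.8 and 57.6 CPM (-0.38 ± 0.14), and its levels overlapped. The nas-37 protease, which digests the old cuticle, had 88.9, 145, 72.4 and 70.9 CPM against 30.1, 34.4 and 40.3 CPM (-1.43 ± 0.17).

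Genes for the making of the matrix were higher in the larva-like class in part. Of 32 tested cuticlin genes, which code for zona pellucida domain proteins of the cuticle, 19 were higher in the larva-like libraries and none in the adult-like ones (median -1.99). cut-2 narrowly overlapped, because TDP-43ΔNLS replicate 4 had 91.2 CPM and wild type replicate 1 had 94.6 CPM. Of 9 collagen processing genes, 6 were higher in the larva-like class (median -1.28). These included the prolyl hydroxylase genes pdi-2 (1483, 1984, 1282 and 1067 CPM against 362, 521 and 920 CPM) and dpy-18 (-1.70 ± 0.29). The collagen convertase gene bli-4 had 269, 290, 255 and 275 CPM against 235, 258 and 314 CPM, levels that overlap. Astacin protease genes were higher in the larva-like class in 9 of 31 cases and in the adult-like class in 2 (median -1.46).

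Hedgehog-related genes of the worm code for secreted proteins of epithelia, and patched-related genes for membrane proteins of sterol-sensing type. Of 53 tested hedgehog-related genes, 24 were higher in the larva-like libraries and 1, grd-4, in the adult-like ones (median -1.55). For grd-4 the classes nearly met at a low level, with 0.588 CPM in TDP-43 replicate 4 and 0.614 CPM in TDP-43 replicate 1. wrt-10 had 237, 367, 191 and 199 CPM against 6.29, 17.7 and 61.9 CPM (-3.67 ± 0.52), and qua-1, needed for molting, had 212, 306, 212 and 214 CPM against 4.35, 18.5 and 81.5 CPM. Of 27 patched-related genes, 17 were higher in the larva-like libraries and 1, ptr-2, in the adult-like ones (median -1.89). The family's 2 patched homologues differed in direction. ptc-3, which acts in the hypodermis, had 243, 277, 243 and 217 CPM against 28.9, 45.7 and 119 CPM (-2.22 ± 0.32), and ptc-1, which acts in germ line cytokinesis, had 234, 190, 244 and 224 CPM against 343, 414 and 502 CPM. At 0.87 ± 0.14, the change of ptc-1 was under the size counted, though its classes did not overlap.

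Of 16 heterochronic genes, 10 were higher in the larva-like libraries and none in the adult-like ones (median log2 change -1.75). The period homologue lin-42, whose RNA cycles with the molts, had 467, 420, 458 and 389 CPM against 20.3, 51.1 and 169 CPM (-2.90 ± 0.48). lin-29, the zinc finger gene that triggers the larva-to-adult switch of the skin, had 84, 109, 76.1 and 86.8 CPM against 15.5, 21.4 and 40.3 CPM (-1.91 ± 0.22), and its cofactor mab-10 had a log2 change of -1.87 ± 0.24. The larva-like libraries agreed closely on lin-42 and lin-29, though they differed by over 100-fold in col-19, a collagen gene downstream of lin-29.

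Regulators of earlier larval fates were also higher in the larva-like class. hbl-1 had 42.1, 29.4, 57.8 and 48.6 CPM against 6.63, 9.73 and 10.2 CPM (-2.22 ± 0.20), daf-12, a steroid hormone receptor gene, had a log2 change of -1.89 ± 0.26, and lin-14, which specifies the earliest larval fates, had 147, 114, 186 and 123 CPM against 30.3, 46.1 and 66.8 CPM (-1.68 ± 0.21). lin-28, which acts with lin-14, had the opposite direction, with 21.8, 23.1, 17.6 and 29.9 CPM against 36.7, 43.6 and 54.1 CPM. Its classes did not overlap, but its change of 0.94 ± 0.17 was under the size counted. Across hbl-1, lin-14, daf-12 and lin-46, TDP-43ΔNLS replicate 3 was the highest larva-like library.

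Genes of the reproductive tract were counted in both directions. Of 12 vulva and uterus genes, 6 were higher in the larva-like libraries and 1 in the adult-like ones (median -1.14). cdh-3, an epithelial cadherin gene of the developing vulva, had 47, 36.7, 50.3 and 35 CPM against 6.97, 9.8 and 19.2 CPM (-2.02 ± 0.28). lin-3, the epidermal growth factor that induces the vulva and later acts in ovulation, was the member higher in the adult-like class (17.5, 8.48, 12.1 and 12.8 CPM against 43.8, 55.6 and 62.5 CPM). Of 13 genes listed for the gonad sheath, spermatheca and distal tip, 4 (30.8%, beside 20.0% of all tested genes) were higher in the adult-like class. In the larva-like class 3 were higher (23.1%, beside 16.9%), and the median was -0.42. The 4 higher in the adult-like class were innexin genes, which form the gap junctions between sheath cells and germ cells. These junctions have a germ cell side, so the adult-like share is not one of somatic gonad genes alone. inx-14 had a log2 change of 3.98 ± 0.32, inx-22 of 4.80 ± 0.32, inx-8 of 3.73 ± 0.51 and inx-9 of 1.88 ± 0.30. gon-1, a protease gene of gonad elongation, had 179, 167, 200 and 140 CPM against 44.8, 59.4 and 112 CPM (-1.52 ± 0.21).

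Among neuronal genes, all 13 touch receptor neuron genes were higher in the larva-like libraries, with a median log2 change of -1.59. mec-7, the β-tubulin gene of these neurons, had 145, 214, 218 and 162 CPM against 52.3, 59.1 and 87.9 CPM (-1.54 ± 0.16), and mec-4, the touch channel gene, had 8.19, 7.85, 11.1 and 12.3 CPM against 1.02, 2.02 and 3.44 CPM (-2.39 ± 0.32). The tubulin gene mec-12 had a log2 change of -1.19 ± 0.14 and the tubulin acetyltransferase gene mec-17 of -1.39 ± 0.19. Of 24 synaptic release genes, 15 were higher in the larva-like class and none in the adult-like one (median -1.12). The vesicle priming gene unc-13 had 145, 145, 163 and 132 CPM against 40.5, 64.8 and 109 CPM. The transgene promoter's own gene, snb-1, had 169, 136, 164 and 183 CPM against 110, 134 and 148 CPM (-0.33 ± 0.13), and its levels overlapped.

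The share of neuropeptide genes higher in the larva-like libraries was near that of all tested genes (16.9%). Of 30 tested FMRFamide-like genes, 5 (16.7%) were higher in the larva-like libraries and none in the adult-like ones (median -0.72). Of 68 neuropeptide-like genes, 12 (17.6%) were higher in the larva-like libraries and 1 in the adult-like ones (median -0.60). Of 27 tested insulin-like genes, 6 (22.2%) were higher in the larva-like class and 2 in the adult-like one, and the median of -0.43 changed sign without TDP-43 replicate 4, to 0.09. ins-27 had 58.6, 48.4, 32 and 39.2 CPM against 7.55, 12.7 and 14.3 CPM (-2.06 ± 0.15).

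Most body wall muscle genes were counted in neither direction, while the share of pharynx genes higher in the larva-like class exceeded that of all tested genes. Of 17 body wall muscle genes, 3 (17.6%, beside 16.9% of all tested genes) were higher in the larva-like libraries (median log2 change -0.59): myo-3, a myosin heavy chain gene (-1.17 ± 0.18), tni-1, a troponin gene (-1.47 ± 0.17), and unc-52, the perlecan gene of the muscle's basement membrane (-1.21 ± 0.20). unc-54, the main myosin heavy chain gene, had 6979, 9240, 15330 and 14580 CPM against 3213, 4477 and 8841 CPM. Wild type replicate 4 lay within the adult-like range, TDP-43 replicate 4 just above it and both TDP-43ΔNLS libraries far above it. The highest adult-like level was 6291 CPM in wild type, 4527 CPM in TDP-43 and 8841 CPM in TDP-43ΔNLS. Within each strain, every larva-like library lay above every adult-like one (log2 differences of -0.645, -1.097 and -0.802, in that order). Of 14 pharynx genes, 6 (42.9%, beside 16.9%) were higher in the larva-like class (median -1.23). pha-4, the organ identity gene of the pharynx, had 61.7, 38.4, 56.5 and 39.5 CPM against 8.38, 12.2 and 24.6 CPM (-1.88 ± 0.21), and ceh-22, a regulator of pharyngeal muscle, had 9.95, 7.56, 10.7 and 6.8 CPM against 0.729, 1.63 and 3.56 CPM. Of 11 tested abu genes, which code for proteins of the pharyngeal cuticle, 2 (18.2%) were higher in the larva-like class (median -0.95).

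Of the housekeeping lists, the cytosolic ribosomal proteins showed a small shared shift. 74 of 79 had a log2 change below 0, with a median of -0.40, and 3 were counted as differing. They took 13.7% to 15.7% of the larva-like counts and 9.55% to 12.3% of the adult-like ones, ranges of unscaled shares that do not overlap. Their summed levels with TMM scaling did overlap, at 132300 to 167600 CPM against 91280 to 135700 CPM. The 3 included a paralogous pair that code for the same ribosomal protein. rpl-11.1 had 256, 673, 224 and 381 CPM against 780, 1406 and 2342 CPM (2.06 ± 0.35), and rpl-11.2 had 2066, 2210, 2286 and 2307 CPM against 443, 600 and 846 CPM (-1.84 ± 0.16). The classes did not overlap for either copy, and the copies differed in direction. rpl-25.1 was the third gene, higher in the larva-like class. This pair was singled out after its values were seen.

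All 33 proteasome genes had a log2 change above 0, with a median of 0.84, and 4 were counted as higher in the adult-like libraries. rpn-6.2 stood out among them, at 4.74, 10.2, 1.72 and 8.51 CPM against 19.6, 26.7 and 28.6 CPM (1.98 ± 0.35), while rpn-1 had 157, 197, 154 and 151 CPM against 234, 275 and 375 CPM (0.84 ± 0.15). Of 29 respiratory chain genes, 27 were counted in neither direction, and the median of -0.06 changed sign with the scaling. The other 2, higher in the adult-like class, have a paralogue elsewhere in the genome. cyc-2.2, for cytochrome c, had 4.09, 14.8, 0.957 and 8.55 CPM against 17.8, 29.5 and 34.2 CPM, and sdha-2, for a succinate dehydrogenase subunit, had 17.6, 25.1, 13.9 and 18.6 CPM against 58.7, 97.1 and 138 CPM (2.45 ± 0.25). The other cytochrome c gene, cyc-2.1, had 756, 877, 719 and 725 CPM against 510, 569 and 648 CPM (-0.44 ± 0.11).

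For metabolic and detoxification lists, the share higher in the larva-like class was near that of all tested genes (16.9%), and the share higher in the adult-like class was under that of all tested genes (20.0%). Of 16 fatty acid desaturase and elongase genes, 3 (18.8%) were higher in the larva-like libraries and 1 (6.25%) in the adult-like ones (median -0.43). The desaturase gene fat-2 had 427, 218, 605 and 552 CPM against 147, 169 and 197 CPM (-1.25 ± 0.21). Of 69 tested cytochrome P450 genes, 11 (15.9%) were higher in the larva-like class and 5 (7.25%) in the adult-like one (median -0.43). Of 64 tested UDP-glucuronosyltransferase genes, 10 (15.6%) were higher in the larva-like class and 2 (3.12%) in the adult-like one (median -0.82).

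Some of these genes were low in a single larva-like library. cyp-14A5 had 319, 60.5, 313 and 430 CPM against 27.1, 38 and 56.2 CPM (-2.64 ± 0.45), and ugt-26 had 252, 38, 227 and 294 CPM against 16, 33.3 and 59.4 CPM. ugt-29 had 283, 63.7, 293 and 392 CPM and ugt-48 had 207, 26.2, 162 and 257 CPM, against 22.6, 39.8 and 73.5 CPM and 16.4, 26.4 and 46.4 CPM. TDP-43 replicate 4 was within or next to the adult-like range for each of these genes, while the other 3 larva-like libraries were over 4 times higher than it. TDP-43 replicate 4 was larva-like in the furrow collagens and in mlt-10.

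Nuclear hormone receptors form a large family in the worm. Of 218 tested, 67 were higher in the larva-like libraries and 3 in the adult-like ones (median -1.02). nhr-97 had 224, 229, 273 and 293 CPM against 80.2, 94.9 and 152 CPM (-1.29 ± 0.18), and nhr-49, a regulator of fat metabolism, had 122, 101, 149 and 125 CPM against 110, 117 and 132 CPM, levels that overlap. C-type lectins, which include secreted defence proteins and proteins of the egg, had members in both directions: of 134, 17 (12.7%, beside 20.0%) were higher in the adult-like class and 14 (10.4%, beside 16.9%) in the larva-like one (median -0.45). clec-87 had 4.81, 8.86, 5.3 and 18 CPM against 423, 826 and 1219 CPM (6.68 ± 0.48), and clec-88 had a log2 change of 6.29 ± 0.54. Of 30 lysozyme and saposin-like genes, 3 (10%) were higher in the larva-like class (median -0.52).

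Most stress genes were counted in neither direction. Of 16 heat shock genes, 1 was counted in each direction, and the median of -0.05 changed sign with the scaling. hsp-1, a constitutive chaperone gene, had 2147, 2080, 2238 and 1116 CPM against 1843, 2210 and 2845 CPM (0.31 ± 0.19, and -0.08 with upper-quartile scaling). Of 15 DAF-16 target and antioxidant genes, 1 was higher in the adult-like class and 3 in the larva-like one (median -0.36, and 0.06 with the replicate number as a block). The adult-like one was sip-1, a small heat shock gene expressed in oocytes and embryos, with 13.7, 19.6, 12.7 and 67.3 CPM against 677, 1364 and 2148 CPM (5.92 ± 0.60).

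The 2 directions were spread unequally over the chromosomes. On the X chromosome, which is known to be largely silent in the germ line, 180 of 2459 tested genes (7.32%) were higher in the adult-like libraries and 686 (27.9%) in the larva-like ones. Chromosome I had the reverse, with 751 (28.2%) and 369 (13.9%) of 2661 genes. Chromosomes II, III and IV had 23.3% to 23.5% of genes higher in the adult-like class and 13.2% to 14.5% in the larva-like class, and chromosome V had 14.8% and 18.5%. Median log2 changes ran from -0.83 on X and -0.50 on V to 0.39 on I. None of the 14 tested genes of the mitochondrial genome was counted. Named genes on X that were higher in the adult-like class included the yolk genes vit-2, vit-3, vit-4 and vit-5. Others were the germ granule gene meg-1, rgs-9, col-19 and col-181. By kind of gene, 20.2% of 16144 protein-coding genes were higher in the adult-like class and 17.4% in the larva-like class, against 18% and 7.97% of 690 pseudogenes.

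**Figure D5:**
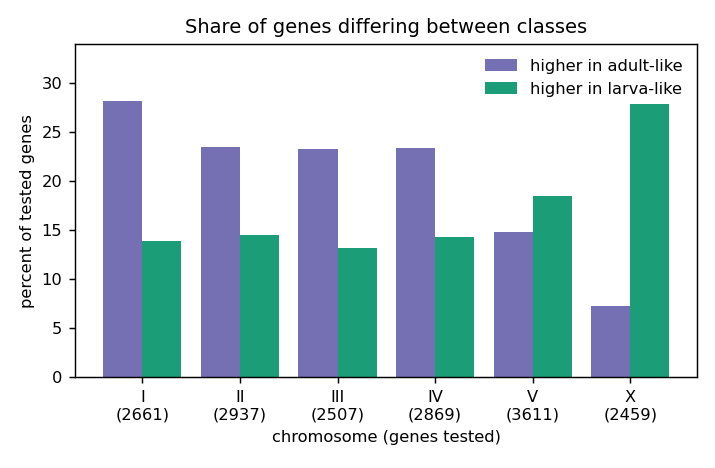
Percent of tested genes on each chromosome that were higher in the adult-like and in the larva-like libraries, with the number tested in brackets. The larva-like bar is the higher one on chromosomes V and X, at 18.5% and 27.9%, and the adult-like bar on I to IV.

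Gene classes by name, looked at after their values were seen, added families outside the lists. Of 158 classes with at least 10 tested members, the bus class, named for worms that do not swell on bacterial infection, had all 10 members higher in the larva-like libraries (median log2 change -2.97), and bus-5 had 146, 226, 172 and 187 CPM against 7.13, 20.2 and 83.8 CPM. Over all tested genes, 16.9% were higher in the larva-like class and 20.0% in the adult-like one. Ligand-gated channels were higher in the larva-like class in 31 of 45 cases (lgc, 68.9%, median -1.28), acetylcholine receptor subunits in 12 of 21 (acr, 57.1%, -1.34), and potassium channels of the twk class in 18 of 43 (41.9%, -1.21). In the adult-like direction, 11 of 12 sperm-specific ssp genes (91.7%), 21 of 34 bath genes (61.8%) and 10 of 19 Skp1-related genes (52.6%) were higher, with medians of 3.27, 1.69 and 2.48. Of the Skp1-related genes, 1 was higher in the larva-like class. So were, in the adult-like class, 12 of 20 Mediator subunit genes (mdt, 60%), 9 of 17 TBP-associated factor genes (taf, 52.9%) and 13 of 26 nuclear pore genes (npp, 50%), with medians of 1.34, 1.08 and 1.05.

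Within wild type (1 larva-like library against 3), TDP-43 (1 against 3) and TDP-43ΔNLS (2 against 2), the median log2 difference of the 3411 genes higher in the adult-like class was 1.96, 1.68 and 2.09. For the 2889 genes higher in the larva-like class it was -1.31, -1.42 and -1.58. The signs follow from how the genes were chosen, and the sizes are the description. Across the 17058 genes, the strains' log2 differences correlated with Pearson's r of 0.861 between wild type and TDP-43, 0.950 between wild type and TDP-43ΔNLS, and 0.851 between TDP-43 and TDP-43ΔNLS. These are descriptions across genes, which are not independent replicates, and the genes were measured on shared scales. For the genes higher in the adult-like class, the median distance of a library from the adult-like mean was -2.31 in TDP-43ΔNLS replicate 3, -2.08 in wild type replicate 4, -1.64 in TDP-43 replicate 4 and -1.60 in TDP-43ΔNLS replicate 4 (log2). Among the adult-like libraries, wild type replicate 1 stood nearest the larva-like ones, at -0.55, and the rest lay between -0.11 and 0.29.

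The difference between strains in the larva-to-adult change is the comparison that the rule did not fix, and it was tested. edgeR's quasi-likelihood F test of the strain by class interaction called no gene at a Benjamini-Hochberg adjusted p under 0.05, and 897 genes had an unadjusted p under 0.05. DESeq2's likelihood ratio test called 185. The count was 8 with scaling by total counts only, 91 without the filter on low counts, and 222 with the replicate number as a block. Leaving out TDP-43ΔNLS replicate 4 gave 672 genes, TDP-43ΔNLS replicate 3 84, wild type replicate 1 33, wild type replicate 4 27 and wild type replicate 3 18, and leaving out any other library gave 0. With 1 larva-like library in each of wild type and TDP-43, the spread of larva-like libraries within a strain came from the TDP-43ΔNLS pair, which differed widely in col-19 and msp-81, so that the lone libraries are assumed to vary like the other groups. Leaving out replicate 4 of wild type or of TDP-43 leaves that strain without a larva-like library. Those fits compare the change between the remaining strains only, so their counts are not of the same test. A count of 0 does not show that the strains changed alike.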

How the data were processed

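Per the labels' protocols, eggs were purified with hypochlorite, whole worms were lysed in TRIzol, and libraries were made from poly-A RNA. Reads were processed with STAR, featureCounts 2.20.0 and R 4.4.2 on WBcel235, per the submitters' processing notes. For strandedness, multiply mapped reads and the annotation release, nothing is stated in the labels or notes. The authors deposited raw counts per gene, as 1 table. All 46926 gene IDs matched Ensembl release 115, which gave symbols, chromosomes and positions. No 2 columns were identical.

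Genes with enough counts by edgeR's filterByExpr (minimum count 10) were kept: 17058 genes holding 99.96% of counts. edgeR 4.0.16 in R 4.3.3 fitted a robust quasi-likelihood model with TMM scaling, with strain and class as terms. The strain by class interaction was tested by the quasi-likelihood F test with Benjamini-Hochberg adjustment. Alternatives were other scalings and filters, DESeq2 1.42.0, a replicate block, no strain term, other thresholds and each library left out. The procedure was also run on simulated counts with the same spread for every gene. No result above rests on that run.

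The 42 gene lists and the class rule were chosen with earlier results of these data known. Named genes are the 12 with the largest change in each direction (among counted genes with a gene-class name, at most 2 per class, at least 5 CPM in the higher class), the markers and the 4 members of each list with the highest mean CPM. Every other gene named was chosen after its values were seen, to show a list's exceptions or its best-known members. Intervals on ratios of low counts are exact and cover counting error only.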

Additional observations from a re-analysis of the deposited data

Results flagged for a closer look

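In a class of 4 or 8 libraries, a library was singled out when its gap to the nearest other exceeded Dixon's 95% critical value for the class's range. Of 398 sets of values looked at (the named genes and the lists, in each class), 34 had such a library. The critical value is set for about 1 in 20, but many named genes were chosen after their values were seen. All sets also share the same libraries, so the 34 are not read against that rate. No explanation was tested.

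Among the larva-like libraries, TDP-43 replicate 4 had 60.5 CPM of cyp-14A5 where the others had 313 to 430 CPM, and 38 CPM of ugt-26 where the others had 227 to 294 CPM. It had 424 CPM of lrp-1 against 565 to 579 CPM. It was high in qua-1 (306 CPM against 211 to 214 CPM), in tni-1 (962 CPM against 389 to 451 CPM) and in rpn-1 (197 CPM against 151 to 157 CPM). Its mean log2 level was 7.26 for the molting and apical matrix list (others 6.81 to 6.87) and 3.77 for the vulva and uterus list (3.93 to 3.94).

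TDP-43ΔNLS replicate 3 had 41.8 CPM of bli-1 against 243 to 325 CPM and 36.8 CPM of col-63 against 350 to 482 CPM. It was high in dpy-1 (63.3 CPM against 27.5 to 28.8 CPM), in lin-46 (26.5 CPM against 15.5 to 16.7 CPM) and in hsp-12.6 (0.718 CPM against 0.042 to 0.121 CPM). TDP-43ΔNLS replicate 4 had 1116 CPM of hsp-1 against 2080 to 2238 CPM, and a mean log2 level of 2.26 for the C-type lectin list against 1.96 to 2.00. Wild type replicate 4 had 32.3 CPM of mcm-6 against 42.5 to 43.7 CPM. Of genes near 0, skr-7 had 0.0399 CPM in TDP-43ΔNLS replicate 3. In TDP-43ΔNLS replicate 4, cdc-25.3 had 0.121 CPM, rgs-9 and fbxc-42 0.081 CPM each and clec-222 0.405 CPM. For each of these genes every other larva-like library had 0. Any count at all is then singled out by the rule, so nothing is read from these genes.

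Among the adult-like libraries, wild type replicate 1 was low in cdc-25.3 (14.9 CPM, others 32.2 to 48.4 CPM), tbx-9 (5.76 CPM, 11.1 to 16.9 CPM), chs-1 (185 CPM, 278 to 390 CPM), spn-4 (475 CPM, 824 to 1271 CPM) and fem-3 (39 CPM, 57.4 to 76 CPM). It was high in gon-1 (112 CPM, 44.8 to 69 CPM), in tra-1 (95 CPM, 67.6 to 77.2 CPM), in hsp-17 (60.7 CPM, 26.7 to 37.4 CPM) and in the UDP-glucuronosyltransferase list (mean log2 level 3.46, 2.56 to 2.95). Wild type replicate 3 had 1.94 CPM of cki-1 against 4.50 to 8.50 CPM and 15.6 CPM of dpy-17 against 5.57 to 7.73 CPM. TDP-43ΔNLS replicate 2 had 6.63 CPM of hbl-1 against 8.55 to 10.2 CPM, and a mean log2 level of 4.80 for the DAF-16 target list against 4.50 to 4.63.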

How the results depend on the processing

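Upper-quartile scaling moved the median log2 change of all genes from -0.17 to -0.54 and raised the genes higher in the larva-like class from 2889 to 4364, so that 36.4% of the counted genes were higher in the adult-like class in place of 54.1%. DESeq2 size factors gave 61.4% and a median of -0.04. With a log2 change of at least 2, 2810 genes were counted, 1974 of them adult-like and 836 larva-like, and with overlap allowed 4427 were adult-like and 4699 larva-like. Leaving out 1 library at a time gave 6185 to 7410 genes, 3378 to 3893 adult-like and 2807 to 3520 larva-like. None of the counted genes that the text names changed sign under any of these settings. Nor did a list whose median was at least 1 in size.

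The count of genes whose change differed between strains was 0, and became 8 with total counts only, 91 with no filter, 185 with DESeq2 and 222 with the replicate block, and 0 to 672 with 1 library left out. The cause was not tested. Of 12 same-numbered pairs, 4 had a correlation of deviations from the strain and class fit over 0.1 (range -0.515 to 0.352). Every library numbered 4 is larva-like, so the class term takes up what those libraries share. These correlations therefore cannot show whether the replicate numbers pair the libraries. In the replicate block, class rests on the libraries numbered 3 alone.

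The limits are the single larva-like library in wild type and in TDP-43, the class read from the RNA itself, and the tie of class to replicate 4 in wild type and TDP-43. Genes near 0 in the larva-like class have a fitted change that depends on the prior count.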

Other observations

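Some gene families held members of opposite direction, singled out after their values were seen. The Skp1-related gene skr-2 had 22.6, 51.2, 19.7 and 33.8 CPM in the larva-like libraries, in the order used above, and 97.8, 160 and 248 CPM (lowest, median and highest) in the adult-like ones. Its relative skr-3 had 172, 89.1, 190 and 251 CPM against 42.2, 51.3 and 75 CPM, so that the classes did not overlap in either gene and their directions were opposite. Small heat shock genes did likewise: hsp-12.6 had 0.108, 0.042, 0.718 and 0.121 CPM against 0.81, 1.4 and 2.12 CPM, and hsp-17 had 152, 62.9, 179 and 118 CPM against 26.7, 32 and 60.7 CPM. In both the classes nearly met. hsp-12.6, at low levels throughout, had 0.718 CPM in TDP-43ΔNLS replicate 3 and 0.81 CPM in wild type replicate 1. hsp-17 had 62.9 CPM in TDP-43 replicate 4 and 60.7 CPM in wild type replicate 1.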
